A study of Homo sapiens with 15 samples.

Results

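The lysosomal genes described here are 46 genes that encode acid hydrolases, cathepsins, lipid-binding activator proteins and membrane proteins of the lysosome, together with the transcription factors that control them. They were taken by gene symbol from an RNA-seq table of 57964 entries, and none of the 46 symbols was repeated in it. By what their products do, 13 are cathepsins and other proteases, 10 are glycosidases, 3 are sulfatases, 7 are lipid hydrolases or lipid-binding proteins, 2 are acid phosphatases, 7 are membrane proteins and 4 are regulators, with the growth factor progranulin (GRN) counted among the last. Of the 46 genes, 42 reached the level needed for testing, 1 TPM (a length-corrected share of the transcripts of a library) or more in 2 or more of 8 libraries, as did 14367 entries of the whole table.

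The lysosome is the acidic compartment in which cells degrade proteins, glycans and lipids taken up by endocytosis or delivered by autophagy. Most of its enzymes are made as precursors that are tagged with mannose 6-phosphate in the Golgi, and they work at the low pH that a proton pump maintains. Transcription factors of the MiT/TFE family (TFEB, TFE3 and MITF) switch on many of these genes together when the kinase mTORC1 is inactive, through an E-box-like sequence called the CLEAR element. Cells of the monocyte lineage are rich in lysosomal proteases.

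All libraries came from MOLM-14, an established human acute myeloid leukaemia (AML) line with a rearranged MLL gene, and there were 2 libraries in each of 4 groups. MOLM-14 cells were electroporated with in vitro-transcribed (IVT) RNA for the orphan nuclear receptor NR4A1 at 100 nM, and the control for these was GFP IVT RNA at the same concentration. Other MOLM-14 cells received 10 uM dihydroergotamine (DHE), an ergot alkaloid drug that the study uses to induce NR4A receptors, and their control was the vehicle, DMSO. All RNA was taken at 6 h. The comparisons ask how lysosomal genes respond to forced NR4A1 and to the drug within hours. A single cell line was used, electroporation was applied only in the IVT RNA groups, and NR4A1 was supplied as introduced RNA rather than from the cells' own gene. Nothing in the labels says that the libraries of a group came from separate cultures, so the p-values measure only the spread between these samples, which may be technical. In bulk RNA, fewer cells that express a gene and less of its RNA per cell cannot be told apart.

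The values are TPM, which add up to the same sum in every library, so the depth is unknown. NR4A1 RNA was at 719 and 674 TPM in the NR4A1 libraries against 2.49 and 2.84 TPM in the GFP libraries. It was at 1.43 and 1.67 TPM with DHE against 1.27 and 1.70 TPM with vehicle. Values of the other NR4A receptors are not given here. The myeloid genes CD33, FLT3, MPO, LYZ, CEBPA and SPI1 were present at 12.0 to 244 TPM in all 8 libraries, CSF1R and ITGAM at 0.600 to 7.36 TPM, and markers of T, B, erythroid, epithelial and fibroblast cells at no more than 0.441 TPM. The replicate differences were wider for GFP and DHE (median absolute log2 difference over all genes tested 0.200 and 0.171) than for NR4A1 and vehicle (0.0784 and 0.0766). The first GFP library stood apart with 55.3% of its TPM from a set of structural RNA entries, against 41.3% to 46.2% in the other libraries. The set holds ribosomal RNA together with signal recognition particle, small nuclear, small nucleolar and other structural noncoding RNAs. Below, the whole set is called ribosomal RNA for short. The first GFP library also held the lowest TPM of all 8 libraries for 23 of the 42 lysosomal genes tested. The second DHE library had the most genes at 1 TPM or more (13934, against 12902 to 13174 elsewhere) and held the highest TPM for 25 of the 42. TPM were therefore rescaled between libraries for every fold change and class total below. Calls of the 46 genes with DHE or with NR4A1 that were lost without these libraries are named. For genes outside the 46 this is not given. For the difference between the treatments, not every such change is named.

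Promoter sequences are shown for 5 members to let members with and without the DNA element of the MiT/TFE factors be set beside their values. RefSeq promoter windows (GRCh38.p14, 250 bases before to 50 bases after the start) were matched by symbol for 34 of the 46 genes, and the members without an entry were CTSB, CTSK, CTSO, CTSS, LGMN, HEXA, MANBA, NAGLU, ARSA, ASAH1, PSAP and LAMP2. CTSL is the member called in both treatments, MCOLN1 and NEU1 were called with DHE alone, and GAA and LAMP1 hold repeated elements but were called in neither comparison. Capitals mark the palindromic E-box CACGTG on the strand of the gene.
CTSL (chr9:87725869-87726168, plus strand): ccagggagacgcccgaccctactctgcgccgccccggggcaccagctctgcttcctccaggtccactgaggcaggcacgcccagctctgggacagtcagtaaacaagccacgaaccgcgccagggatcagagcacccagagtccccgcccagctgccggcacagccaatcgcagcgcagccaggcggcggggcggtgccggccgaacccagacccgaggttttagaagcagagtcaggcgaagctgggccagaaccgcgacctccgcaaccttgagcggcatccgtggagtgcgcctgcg
MCOLN1 (chr19:7522374-7522673, plus strand): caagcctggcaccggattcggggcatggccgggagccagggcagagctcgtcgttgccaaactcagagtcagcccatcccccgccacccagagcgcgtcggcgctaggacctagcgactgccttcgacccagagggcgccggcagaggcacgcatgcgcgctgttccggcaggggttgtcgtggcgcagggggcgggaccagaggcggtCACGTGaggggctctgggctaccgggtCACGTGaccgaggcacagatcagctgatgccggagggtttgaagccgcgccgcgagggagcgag
NEU1 (chr6:31862772-31863071, minus strand): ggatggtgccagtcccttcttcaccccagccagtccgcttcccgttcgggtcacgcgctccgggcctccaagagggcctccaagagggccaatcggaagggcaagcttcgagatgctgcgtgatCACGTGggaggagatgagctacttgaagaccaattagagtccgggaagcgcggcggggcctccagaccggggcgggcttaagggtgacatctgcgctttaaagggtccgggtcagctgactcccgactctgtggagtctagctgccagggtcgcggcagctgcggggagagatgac
GAA (chr17:80101331-80101630, plus strand): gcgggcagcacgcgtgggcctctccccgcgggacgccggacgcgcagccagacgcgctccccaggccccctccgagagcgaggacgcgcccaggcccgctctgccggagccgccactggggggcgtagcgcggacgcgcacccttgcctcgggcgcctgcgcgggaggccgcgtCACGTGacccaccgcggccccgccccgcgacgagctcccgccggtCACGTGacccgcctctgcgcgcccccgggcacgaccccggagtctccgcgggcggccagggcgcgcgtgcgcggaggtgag
LAMP1 (chr13:113296989-113297288, plus strand): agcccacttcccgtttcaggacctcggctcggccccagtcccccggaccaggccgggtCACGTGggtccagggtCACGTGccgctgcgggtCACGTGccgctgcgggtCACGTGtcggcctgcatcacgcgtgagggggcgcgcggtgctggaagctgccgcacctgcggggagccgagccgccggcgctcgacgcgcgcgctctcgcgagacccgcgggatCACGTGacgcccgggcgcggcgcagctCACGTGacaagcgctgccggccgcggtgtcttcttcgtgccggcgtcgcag

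The CLEAR core TCACGTGA, which contains the E-box, lies in 4 of the 34 members (11.8%), CTSA, GAA, LAMP1 and MCOLN1, against 1.18% of the 27305 genes with a window. MCOLN1 has it at 42 and 15 bases before the start, GAA at 77 and 32 bases before it, LAMP1 at 29 and 2 bases before it, and CTSA once, 26 bases before it. The shorter CACGTG is in 10 of the 34 (29.4%), CTSA, CTSD, CTSF, GAA, NEU1, ARSB, ACP5, LAMP1, CD63 and MCOLN1, against 8.77% of all genes. The NR4A monomer element AAAGGTCA (NBRE) was searched on both strands and is in none of the 34 windows, against 1.49% of all genes. With DHE, 2 of the 8 members called higher that have a window (25.0%, MCOLN1 and NEU1) and 6 of the 23 tested and not called (26.1%) hold CACGTG. A match is a description of the letters and not a measured binding site, and a gene with more than 1 start counts as a match where any of its windows holds the motif.

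In every group the most abundant members were proteases of the monocyte lineage and proteins of the lysosomal membrane and lumen. The 46 genes together held 0.0869% to 0.134% of the TPM of a library, and 8 of them had a mean of at least 50 TPM while 11 had a mean under 5 TPM. CTSC, the dipeptidyl peptidase that activates granule serine proteases, ranked first of the 46 in all 4 groups, at 130.2 and 122 TPM with NR4A1, 85.4 and 111 TPM with GFP, 134 and 137 TPM with DHE and 117 and 116 TPM with vehicle. PSAP, the precursor of the saposins that present sphingolipids to their hydrolases, had 88.1 and 87.7 TPM with NR4A1, 61.5 and 71.2 TPM with GFP, 99.3 and 108 TPM with DHE, and 84.0 and 77.3 TPM with vehicle. CD63, a tetraspanin of late endosomes, had 79.1 TPM in both NR4A1 libraries, 50.7 and 72.9 TPM with GFP, 82.1 and 81.5 TPM with DHE, and 78.8 and 80.7 TPM with vehicle. CTSS, the cysteine protease that trims the invariant chain of MHC class II, had 76.2 and 68.8 TPM with NR4A1, 61.1 and 68.7 TPM with GFP, 85.4 and 81.8 TPM with DHE, and 70.6 and 67.8 TPM with vehicle. At the other end, 4 members stayed under the level for testing. These were CTSF, a cysteine cathepsin (0.109 to 0.348 TPM over the 8 libraries), LGMN, the asparaginyl endopeptidase legumain (0.19 to 0.389 TPM), ACP5, tartrate-resistant acid phosphatase (0 to 0.185 TPM), and GPNMB, a glycoprotein of macrophage lysosomes (0.122 to 0.581 TPM).

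DHE raised 10 lysosomal genes and lowered 1 at 6 h. The genes that rose were the cysteine cathepsins CTSL, CTSK and CTSB, the glycosidases GLA and NEU1, the sulfatase IDS, the sphingomyelinase SMPD1, the phosphatase ACP2, the lysosomal cation channel MCOLN1 and the transcription factor TFE3, and the gene that fell was the glycosidase NAGLU. A gene was called when its p-value adjusted over all genes tested was under 0.05 and it changed more than 1.5-fold. The 10 are 23.8% of the 42 genes tested, where 9.07% of all genes tested were called higher with DHE. CTSK entered the genes tested only through its high DHE libraries, and without it 9 of 41 genes (22.0%) were called higher. The 1 gene that fell is 2.38% where 10.1% of all genes were called lower. The genes were chosen with earlier results of these data known, so these shares are a description. The median log2 fold change was 0.22 over the 42 genes and 0.04 over all genes tested. Values were above 0 for 31 of the 42, and for 7666 of all 14367 genes tested. Without the first GFP and the second DHE library together, 9 of the 11 calls were kept, and CTSK and IDS were lost. Among the 8 genes of leukaemia and monocyte identity, the macrophage receptor CSF1R was called higher with DHE (4.39 and 7.36 TPM against 1.49 and 1.25 TPM with vehicle), FLT3 and MPO were called lower, and the other 5 were not called. The part of such a shift in the lysosomal values was not tested.

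**Figure D1:**
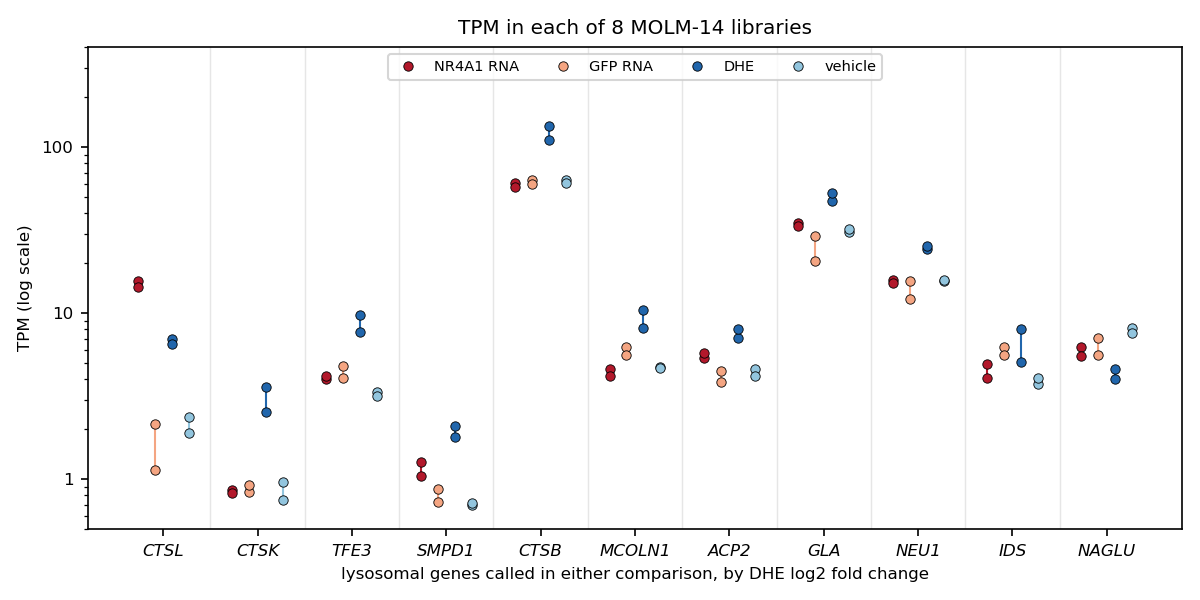
TPM of the 11 lysosomal genes called in either treatment, on a log axis, with 1 point for each library and a line joining the libraries of a group. The DHE points of 10 genes lie above both vehicle points and those of NAGLU below them, while the NR4A1 points stand far above the GFP points for CTSL, at 15.5 and 14.4 against 1.14 and 2.14 TPM.

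Among the cathepsins and proteases, 3 of the 11 tested (27.3%) rose with DHE and none fell, beside 9.07% and 10.1% of all genes tested. Of the 11 log2 fold changes, 10 were above 0, as were 7666 of 14367 over all genes tested. CTSL, an endopeptidase of broad specificity, had 6.95 and 6.47 TPM with DHE against 2.38 and 1.89 TPM with vehicle. Both DHE libraries lay far above both vehicle libraries, and CTSL rose by 1.43 ± 0.20 (SE) on the log2 scale (adjusted p = 0.00351). CTSK, the collagen-degrading cathepsin best known from osteoclasts, had 2.54 and 3.56 TPM with DHE against 0.747 and 0.964 TPM with vehicle. Its other libraries were all under 1 TPM, so that it reached the level for testing only through the DHE libraries. A gene that enters in this way had to differ, and its log2 fold change of 1.35 ± 0.18 is therefore given as a description. CTSB, an abundant cathepsin with carboxydipeptidase activity, had 109.9 and 133 TPM with DHE against 63.6 and 60.3 TPM with vehicle. It rose by 0.94 ± 0.10 (adjusted p = 0.00114), and it ranked 2 of the 46 genes by mean TPM with DHE, against 6 with vehicle.

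The remaining proteases were not called with DHE. TPP1, a tripeptidyl peptidase whose loss causes a neuronal ceroid lipofuscinosis, had 17.3 and 35.2 TPM with DHE against 13.5 and 14.2 TPM with vehicle, and the DHE libraries differed by 0.82 on the log2 scale, the widest replicate difference of any member. Its log2 fold change of 0.79 ± 0.26 had an adjusted p of 0.0628. CTSH, an aminopeptidase, had 1.91 and 2.27 TPM with DHE against 1.55 and 1.66 TPM with vehicle (log2 fold change 0.27 ± 0.13, adjusted p = 0.159). The aspartic protease CTSD, the carboxypeptidases CTSA and CTSZ, and CTSC and CTSS had log2 fold changes of 0.16 to 0.25, with adjusted p-values of 0.0794 to 0.164. CTSO, a little-studied cysteine cathepsin, had 2.24 and 1.96 TPM with DHE against 2.09 and 2.10 TPM with vehicle.

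Among the 10 glycosidases, 2 (20.0%) rose and 1 (10.0%) fell with DHE, and among the 3 sulfatases 1 (33.3%) rose and none fell. Over all genes tested, 9.07% were called higher and 10.1% lower. GLA, the alpha-galactosidase that is deficient in Fabry disease, had 47.2 and 53.0 TPM with DHE against 30.9 and 31.9 TPM with vehicle, and rose by 0.64 ± 0.10 on the log2 scale (adjusted p = 0.00479). NEU1, the lysosomal sialidase, had 24.4 and 25.3 TPM with DHE against 15.6 and 15.7 TPM with vehicle. Replicates of NEU1 were within 1 TPM of each other in both groups, and it rose by 0.63 ± 0.08 (adjusted p = 0.00249). NAGLU, which removes N-acetylglucosamine from heparan sulfate, had 4.02 and 4.58 TPM with DHE against 8.16 and 7.61 TPM with vehicle. Both DHE libraries lay below every other library of the series, and NAGLU fell by 0.82 (SE 0.09, adjusted p = 0.00116).

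The most abundant glycosidase was MAN2B1, a lysosomal alpha-mannosidase, at 52.4 and 55.5 TPM with DHE against 59.3 and 59.9 TPM with vehicle (log2 fold change -0.16 ± 0.10, adjusted p = 0.268). HEXA, the alpha subunit of hexosaminidase that is deficient in Tay-Sachs disease, had 29.4 and 31.5 TPM with DHE against 26.7 and 25.0 TPM with vehicle (0.21 ± 0.08, adjusted p = 0.0973). MANBA, a beta-mannosidase, passed the adjusted p (0.00964) but not the fold limit, with 14.1 and 13.8 TPM with DHE against 8.87 and 9.67 TPM with vehicle. The beta-galactosidase GLB1, the acid alpha-glucosidase GAA, the beta-glucuronidase GUSB and the alpha-iduronidase IDUA had log2 fold changes of -0.07 to 0.33 with DHE and were not called. GAA has 2 copies of the CLEAR core in the window printed above, and their part was not tested.

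IDS, the iduronate sulfatase, had 5.10 and 7.96 TPM with DHE against 3.75 and 4.04 TPM with vehicle. It rose by 0.62 ± 0.18 with an adjusted p of 0.0398, but it was no longer called under 12 of 20 alternatives, among them leaving out the second DHE library. A pseudogene near IDS carries a copy of part of its sequence, so its assignment of reads is uncertain. ARSB, arylsulfatase B, had 12.7 and 15.2 TPM with DHE against 15.1 and 16.2 TPM with vehicle, and ARSA, arylsulfatase A, had 4.92 and 6.53 TPM with DHE against 4.16 and 4.07 TPM with vehicle. The adjusted p-values were 0.123 for ARSB and 0.0635 for ARSA.

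Among the lipid hydrolases and lipid-binding proteins, 1 of 7 (14.3%) rose with DHE and none fell, beside 9.07% and 10.1% of all genes tested. In limma 4 of the 7 (57.1%) had an unadjusted p under 0.05 in either direction, as did 45% of all genes tested. SMPD1, acid sphingomyelinase, was the gene called, with 1.78 and 2.08 TPM with DHE against 0.697 and 0.720 TPM with vehicle. It rose by 0.98 ± 0.16 on the log2 scale (adjusted p = 0.00644), and its vehicle libraries were under 1 TPM. ASAH1, acid ceramidase, had 34.0 and 38.4 TPM with DHE against 27.1 and 26.5 TPM with vehicle (0.40 ± 0.12, adjusted p = 0.0408), and PSAP had a log2 fold change of 0.34 ± 0.06 (adjusted p = 0.00781), so that both passed the adjusted p and neither the fold limit. PPT1, a thioesterase that removes palmitate from proteins, had 52.5 and 61.2 TPM with DHE against 68.1 and 63.1 TPM with vehicle (-0.23 ± 0.09, adjusted p = 0.0900). The acid lipase LIPA, the cholesterol carrier NPC2 and the ganglioside activator GM2A had log2 fold changes of -0.09 to -0.01, and the median of the class was -0.01.

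ACP2, the lysosomal acid phosphatase, was the only acid phosphatase at a testable level, with 7.12 and 7.97 TPM with DHE against 4.63 and 4.19 TPM with vehicle, and it rose by 0.69 ± 0.13 (adjusted p = 0.0106). Of the membrane proteins, MCOLN1 was the 1 of 6 (16.7%) called higher, beside 9.07% of all genes tested, and none was called lower. MCOLN1 encodes TRPML1, the channel that releases calcium from lysosomes, and its transcript had 8.14 and 10.4 TPM with DHE against 4.70 and 4.65 TPM with vehicle. It rose by 0.88 ± 0.12 (adjusted p = 0.00344). SCARB2, the receptor that carries glucocerebrosidase to lysosomes, passed the adjusted p (0.0185) but not the fold limit, at 9.75 and 10.1 TPM with DHE against 7.26 and 6.21 TPM with vehicle.

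The abundant structural membrane proteins were not called with DHE. LAMP1 had 50.4 and 49.3 TPM with DHE against 52.7 and 50.7 TPM with vehicle, and LAMP2 had 53.1 and 59.0 TPM with DHE against 55.9 and 53.7 TPM with vehicle. These heavily glycosylated proteins line the inner face of the lysosomal membrane. Their log2 fold changes were -0.07 ± 0.09 for LAMP1 and 0.01 ± 0.09 for LAMP2, that of CD63 was 0.01 ± 0.12, and that of the macrophage sialomucin CD68 was 0.16 ± 0.17. The LAMP1 window holds 6 E-boxes and that of MCOLN1 2, CD63 has 1, and LAMP2 has no window. Of these genes only MCOLN1 was called, and the part of the element was not tested.

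Of the 3 transcription factors, TFE3 rose with DHE, TFEB passed the adjusted p alone, and MITF passed neither criterion. TFE3 had 7.73 and 9.69 TPM with DHE against 3.34 and 3.14 TPM with vehicle. It rose by 1.27 ± 0.09 (adjusted p = 0.000314), the smallest adjusted p of the 42 genes. TFEB had 16.1 and 17.8 TPM with DHE against 11.4 and 11.1 TPM with vehicle (0.55 ± 0.12, adjusted p = 0.0167), and it was called with upper quartile scaling and with equal totals outside ribosomal RNA. MITF had 3.19 and 3.13 TPM with DHE against 2.99 and 2.31 TPM with vehicle, and its groups differed by less than the fold limit (0.21 ± 0.15, adjusted p = 0.323). GRN, which encodes progranulin, a secreted precursor of lysosomal granulins, had 43.0 and 49.7 TPM with DHE against 41.2 and 40.4 TPM with vehicle (0.16 ± 0.06, adjusted p = 0.0759).

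**Figure D2:**
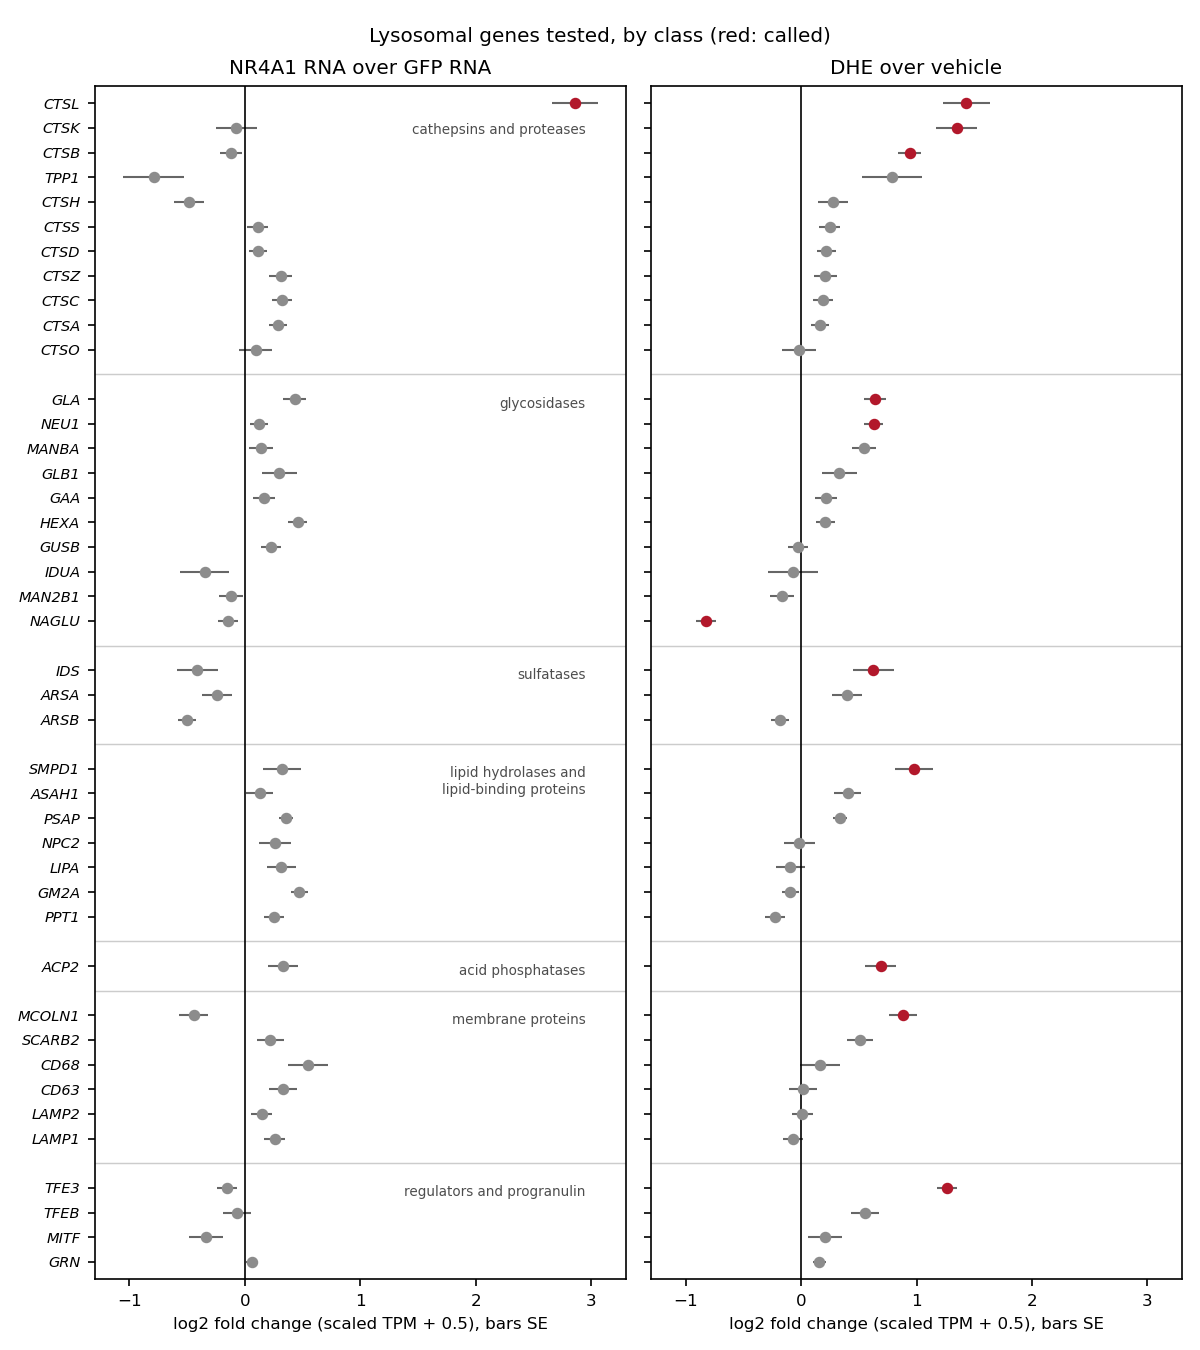
Log2 fold changes of the 42 lysosomal genes tested, with SE bars, for NR4A1 over GFP on the left and DHE over vehicle on the right, grouped by class and ordered within each class by the DHE value. Called genes are red, and the left panel has 1 (CTSL) where the right panel has 11.

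With NR4A1 RNA, CTSL was the only lysosomal gene called, and the difference between its NR4A1 and DHE effects is tested below. CTSL had 15.5 and 14.4 TPM with NR4A1 against 1.14 and 2.14 TPM with GFP, and it ranked 22 of the 46 genes by mean TPM with NR4A1, against 40 with GFP. It rose by 2.86 ± 0.20 on the log2 scale (adjusted p = 0.00194), was called under all 20 alternatives, and ranged there between 2.59 and 3.13. The 1 gene is 2.38% of the 42 tested, where 2.64% of all genes tested were called higher with NR4A1. None of the 42 was called lower, where 2.26% of all genes were, although 19 of the 42 (45.2%) had an unadjusted p under 0.05 in limma in either direction, as did 28.6% of all genes tested. Of the 8 identity genes, LYZ was called higher with NR4A1 and SPI1 lower, and their part was not tested. The window of CTSL printed above holds neither AAAGGTCA nor CACGTG. Sequence outside the window was not searched, and binding was not examined.

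A further 4 lysosomal genes passed the adjusted p with NR4A1 but not the fold limit. HEXA had 31.3 and 29.7 TPM with NR4A1 against 18.6 and 24.4 TPM with GFP (0.46 ± 0.08, adjusted p = 0.0258). GM2A, which lifts ganglioside out of the membrane for hexosaminidase, had 9.05 and 8.62 TPM with NR4A1 against 5.77 and 6.29 TPM with GFP (0.47 ± 0.07, adjusted p = 0.0188). PSAP had a log2 fold change of 0.36 ± 0.06 (adjusted p = 0.0215). ARSB had 13.1 and 12.3 TPM with NR4A1 against 17.2 and 17.9 TPM with GFP (-0.50 ± 0.08, adjusted p = 0.0187), and it was called lower when libraries were set to equal totals outside ribosomal RNA. The enzyme HEXA and its activator GM2A act together on GM2 ganglioside. For both genes, and for PSAP, the first GFP library, rich in ribosomal RNA, held the lowest TPM of all 8.

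Other abundant members had values with NR4A1 that did not pass. CTSC had a log2 fold change of 0.32 ± 0.09 (adjusted p = 0.0727), CD63 of 0.33 ± 0.12 (0.148), PPT1 of 0.25 ± 0.09 (0.128) and LAMP1 of 0.26 ± 0.09 (0.126). For LAMP1 the libraries read 51.6 and 52.2 TPM with NR4A1 against 37.6 and 46.6 TPM with GFP, and for PPT1 65.1 and 66.5 TPM against 46.2 and 61.8 TPM. In each of these 4 genes the first GFP library, the one rich in ribosomal RNA, held the lowest TPM of all 8, and none of the 4 was called without that library either. MAN2B1 had 56.0 and 55.2 TPM with NR4A1 against 60.7 and 56.6 TPM with GFP, LAMP2 had 51.2 TPM in both NR4A1 libraries against 38.2 and 52.2 TPM with GFP, and ASAH1 had 24.5 and 23.4 TPM with NR4A1 against 17.4 and 25.8 TPM with GFP. As TPM, the second GFP library lay above both NR4A1 libraries for LAMP2 and ASAH1, and both GFP libraries did for MAN2B1. After rescaling, the NR4A1 and GFP libraries overlapped for each of MAN2B1, LAMP2 and ASAH1.

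Of the 10 genes that rose with DHE, 9 were not called with NR4A1. CTSB had 60.8 and 57.0 TPM with NR4A1 against 63.5 and 60.2 TPM with GFP (-0.12 ± 0.10, adjusted p = 0.442). CTSK had 0.858 and 0.823 TPM with NR4A1 against 0.838 and 0.921 TPM with GFP, and SMPD1 had 1.28 and 1.04 TPM with NR4A1 against 0.725 and 0.870 TPM with GFP. Neither of these low genes was called. GLA had 34.9 and 33.6 TPM with NR4A1 against 20.6 and 28.9 TPM with GFP (0.43 ± 0.10), and passed neither the adjusted p (0.0510) nor the fold limit. ACP2 had 5.38 and 5.72 TPM with NR4A1 against 4.48 and 3.87 TPM with GFP (0.33 ± 0.13, adjusted p = 0.168). Of the transcription factors, TFEB had 11.1 and 14.0 TPM with NR4A1 against 11.8 and 13.5 TPM with GFP, TFE3 had 3.99 and 4.16 TPM against 4.08 and 4.83 TPM, and MITF had 1.95 and 2.19 TPM against 2.42 and 2.91 TPM. None of the 3 was called, with adjusted p-values of 0.189 to 0.742.

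The cathepsins, glycosidases and lipid genes were then set side by side. With DHE, the 11 cathepsins and proteases tested had a median log2 fold change of 0.25, with 3 (27.3%) called higher. The 10 glycosidases had a median of 0.21, with 2 (20.0%) higher and 1 (10.0%) lower. The 7 lipid hydrolases and lipid-binding proteins had a median of -0.01, with 1 (14.3%) higher. Over all genes tested the median was 0.04, with 9.07% called higher and 10.1% lower. With NR4A1, the medians were 0.11, 0.15 and 0.32 for the same 3 classes, beside -0.02 over all genes. All 7 lipid genes had values above 0 with NR4A1, as did 6864 of all 14367 genes tested, though none of the 7 was called. In GFP against vehicle, 6 of the 7 lipid genes were below 0 and 1 was above. Over all genes tested, 7099 were below 0 and 7214 above in that comparison. These are counts and medians of members grouped by function and chosen with earlier results of these data known. No test was made of one class against another.

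The cathepsins and proteases summed to 447 and 441 scaled TPM with DHE against 330.3 and 331 scaled TPM with vehicle, a ratio of 1.34. CTSB made up 49.2% of that difference, and without CTSB the ratio was 1.21, a split chosen after the values were seen. The glycosidases summed to 228 and 216 scaled TPM with DHE against 189 and 196 scaled TPM with vehicle, and GLA made up 58.1% of the difference. The lipid genes summed to 241 and 231 scaled TPM with DHE against 222 and 213 scaled TPM with vehicle (1.09), and without PSAP the ratio was 0.984. In each of the 3 classes 1 abundant gene thus held 49.2% or more of the difference.

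With NR4A1 the lipid genes summed to 224 and 234 scaled TPM against 177 and 197 scaled TPM with GFP (1.23). Their GFP sums also lay below those with vehicle, 222 and 213 scaled TPM. The cathepsins summed to 388 and 378 scaled TPM with NR4A1 against 348 and 336 with GFP (1.12). CTSC, which was not called, made up 63.0% of that difference, and without it the ratio was 1.06. For the glycosidases the sums were 204 and 206 against 190 and 179 scaled TPM (1.11), and without GLA the ratio was 1.07. The sulfatases summed to 22.2 and 20.5 scaled TPM with NR4A1 against 31.6 and 27.3 scaled TPM with GFP (0.725). ARSB made up 69.2% of that difference. With vehicle the sulfatases stood at 22.2 and 24.0 scaled TPM, so GFP was the higher control. These sums have 2 values a group, for which an exact permutation test cannot go below p = 0.333, so no test was made of them.

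**Figure D3:**
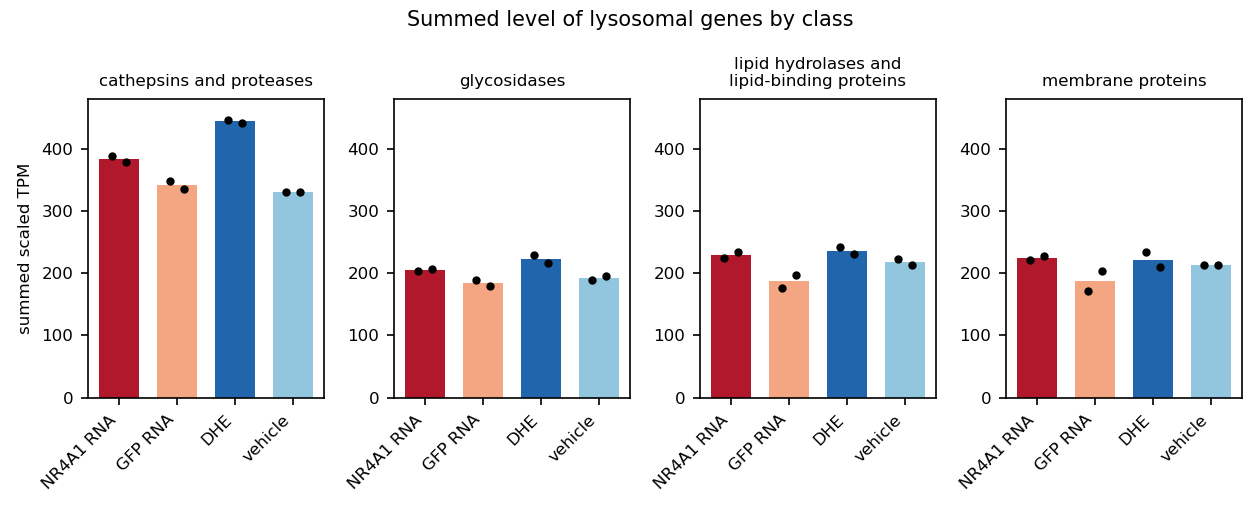
Summed scaled TPM of 4 classes of lysosomal genes, with bars for group means and points for the 2 libraries of a group. The cathepsins and proteases reach 447 and 441 with DHE against 330.3 and 331 with vehicle. The glycosidases, the lipid hydrolases and the membrane proteins have their lowest bars with GFP.

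The difference between the 2 treatments was tested directly as the DHE effect minus the NR4A1 effect, and called at an adjusted p under 0.05. It was above 0 for 8 of the 42 genes (19.0%, where 8.03% of all genes were called in that direction) and below 0 for 4 (9.52%, where 10.9% of all genes were). The 8 were CTSB, CTSH, CTSK (tested only through its DHE libraries), TPP1, NEU1, IDS, MCOLN1 and TFE3, and the 4 were CTSL, NAGLU, PPT1 and GM2A. For TFE3 the difference was 1.42 ± 0.12 (adjusted p = 0.00297) and for CTSB 1.06 ± 0.14 (adjusted p = 0.00804), and these 2 calls held under all 18 alternatives. For MCOLN1 it was 1.33 ± 0.18 (adjusted p = 0.00834), lost when the second NR4A1 or the first vehicle library was left out. For CTSL the difference was -1.43 ± 0.29 (adjusted p = 0.0244), and it was lost when either NR4A1 library, either vehicle library or the second DHE library was left out, and also without rescaling, without the filter and with the replicate block, 8 of 18 alternatives in all. The other 8 differences were lost under 4 to 12 of their alternatives, and only 2 to 3 of the 12 calls were kept when an NR4A1 or vehicle library was left out.

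The controls also stood apart for some of these genes. MCOLN1 had 4.58 and 4.16 TPM with NR4A1 against 6.22 and 5.60 TPM with GFP, whereas vehicle stood at 4.70 and 4.65 TPM, close to the NR4A1 libraries. TPP1 had 16.0 and 13.2 TPM with NR4A1 against 25.4 and 23.9 TPM with GFP, and vehicle stood at 13.5 and 14.2 TPM. IDS had 4.94 and 4.06 TPM with NR4A1 against 6.20 and 5.62 TPM with GFP, and vehicle stood at 3.75 and 4.04 TPM. In these 3 genes GFP was the higher control, as it was for TFE3 and CTSH. CTSH had 1.44 and 1.47 TPM with NR4A1 against 2.17 and 2.13 TPM with GFP, and vehicle stood at 1.55 and 1.66 TPM (difference of effects 0.76 ± 0.19). NEU1 had 15.9 and 15.1 TPM with NR4A1 against 12.1 and 15.5 TPM with GFP (0.51 ± 0.11). NAGLU had 6.22 and 5.50 TPM with NR4A1 against 5.60 and 7.10 TPM with GFP. For GM2A vehicle was the higher control, with 7.80 and 8.10 TPM with DHE against 8.63 and 8.15 TPM with vehicle, and GFP at 5.77 and 6.29 TPM, and its difference of effects was -0.56 ± 0.11.

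**Figure D4:**
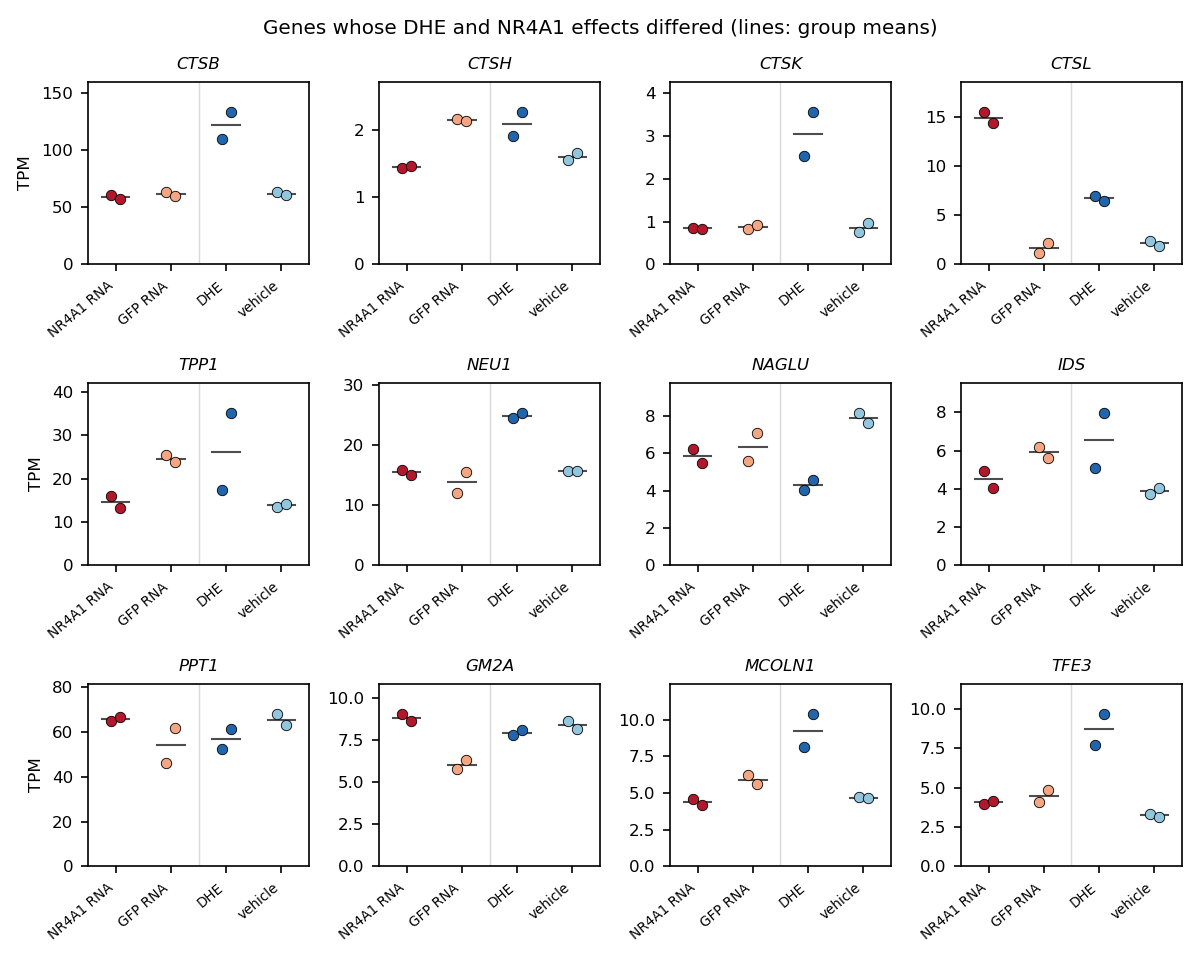
TPM in each library of the 12 genes whose DHE and NR4A1 effects differed, with lines at group means and a separate axis from 0 for each gene. CTSB, CTSK, NEU1 and TFE3 are highest in the DHE libraries, CTSL is highest in the NR4A1 libraries, and TPP1, IDS and MCOLN1 are higher with GFP than with vehicle.

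Between the controls, GFP against vehicle, none of the 42 lysosomal genes was called by limma in either direction, where 0.0139% of all genes were called higher and 0% lower, and 10 of the 42 (23.8%) had an unadjusted p under 0.05, as did 18.7% of all genes tested. The log2 fold changes ran up to 0.92 ± 0.26 for TPP1 (adjusted p = 0.215), 0.65 ± 0.18 for IDS (0.210), 0.50 ± 0.09 for TFE3 (0.112) and 0.41 ± 0.12 for MCOLN1 (0.219), and down to -0.45 ± 0.12 for LIPA (0.209) and -0.34 ± 0.07 for GM2A (0.170). LIPA had 17.3 and 23.8 TPM with GFP against 30.03 and 30.6 TPM with vehicle. The GFP group shares its libraries with the NR4A1 comparison and the vehicle group with the DHE comparison, so these values are not independent of the ones above.

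Genes of the pathway outside the 46 were taken from 7 functional lists of 125 genes, of which 113 were tested. With DHE, 19 of the 113 (16.8%) rose and 4 (3.54%) fell, beside 9.07% and 10.1% of all genes tested. The lists, too, were chosen with earlier results of these data known. Whether their calls held without the first GFP or the second DHE library is not given. The autophagy list had 7 of 20 (35.0%) higher and none lower, and 13 of the 20 (65.0%) had an unadjusted p under 0.05 in limma in either direction, as did 45% of all genes tested. GABARAPL1, a member of the ATG8 family that coats autophagosomes, had 4.53 and 4.29 TPM with DHE against 1.85 and 2.16 TPM with vehicle (0.95 ± 0.14, adjusted p = 0.00449). WIPI1, which binds phosphoinositides on nascent autophagosomes, had 3.09 and 4.07 TPM with DHE against 1.03 and 1.08 TPM with vehicle (1.35 ± 0.20, adjusted p = 0.0045). The cargo receptor SQSTM1 had 64.2 and 61.0 TPM with DHE against 39.5 and 39.0 TPM with vehicle (0.64 ± 0.11, adjusted p = 0.00651), and the other 4 called were GABARAP, MAP1LC3B, ULK1 and ATG9A.

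Among other lysosomal membrane proteins, 6 of 23 (26.1%) rose and 2 (8.70%) fell with DHE. HGSNAT, the acetyltransferase that precedes NAGLU in heparan sulfate breakdown, had 14.6 and 24.7 TPM with DHE against 6.49 and 6.13 TPM with vehicle (2.82-fold, adjusted p = 0.00162), so the pair of neighbouring enzymes moved in opposite directions. NPC1, which exports cholesterol from lysosomes, had 9.39 and 12.9 TPM with DHE against 6.07 and 6.54 TPM with vehicle (0.73 ± 0.14, adjusted p = 0.00977). TMEM192 had 3.71 and 4.69 TPM with DHE against 11.0 TPM in both vehicle libraries, and fell by 1.31 on the log2 scale (SE 0.08, adjusted p = 0.000215). Of other hydrolases, 3 of 22 (13.6%) rose and 2 (9.09%) fell, shares near the 9.07% and 10.1% of all genes. The fucosidase FUCA1 had 12.1 and 12.7 TPM with DHE against 5.29 and 5.74 TPM with vehicle (1.07 ± 0.09, adjusted p = 0.000594), whereas the peptidase DPP7 had 60.6 and 61.6 TPM with DHE against 106 and 100.4 TPM with vehicle and fell by 0.77 (adjusted p = 0.000855), as did the hyaluronidase HYAL2 by 0.95 (adjusted p = 0.00147).

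Of the proton pump, sorting receptor and mTORC1 control genes, 1 in each list was called higher with DHE and none lower, which is 6.25%, 7.69% and 6.67% of the lists beside 9.07% of all genes. These were ATP6V0A1 of 16 pump subunits (0.61 ± 0.12), the sorting receptor SORL1 of 13 (0.96 ± 0.12) and the GTPase RRAGC of 15 (0.70 ± 0.20). None of 4 cystatins tested, the inhibitors of cysteine cathepsins, was called, and 1 of the 4 had an unadjusted p under 0.05. With NR4A1, 5 of the 113 (4.42%) rose and 3 (2.65%) fell, beside 2.64% and 2.26% of all genes tested. RRAGD, a GTPase that brings mTORC1 to the lysosome, had 8.43 and 8.002 TPM with NR4A1 against 1.23 and 2.11 TPM with GFP and rose by 2.01 ± 0.27 (adjusted p = 0.0125), the widest change of the 113. SCPEP1, a serine carboxypeptidase, had 17.8 and 18.4 TPM with NR4A1 against 8.08 and 10.1 TPM with GFP (0.92 ± 0.08, adjusted p = 0.00381), FUCA1 had 6.96 and 7.26 TPM against 3.89 and 4.76 TPM (0.62 ± 0.09, adjusted p = 0.0151), GABARAPL1 had 3.39 and 3.12 TPM against 1.46 and 2.01 TPM (0.72 ± 0.14, adjusted p = 0.0348), and the pump subunit ATP6V1E1 had 72.5 and 72.4 TPM against 36.0 and 51.5 TPM (0.69 ± 0.11, adjusted p = 0.0186). The genes that fell were the transporters MFSD12 and ABCA2 and the channel TPCN1.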

How the data were processed

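RNA was measured in 8 MOLM-14 libraries made from ribosome-depleted total RNA. The authors trimmed reads with Trim Galore, estimated transcript abundance with Salmon 0.11.0 (submitters' processing notes), and deposited TPM per gene. DESeq2 fold changes and p-values that the authors placed beside the TPM were not used, nor were the ChIP-seq libraries. Groups followed the treatment labels.

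TPM were divided by a median-of-ratios factor per library (0.887 to 1.11), log2-transformed after adding 0.5, and fitted with limma 3.58.1 in R 4.3.3 as 4 group means with an intensity trend, over genes that reached 1 TPM in 2 or more libraries. P-values were adjusted by Benjamini-Hochberg over 14367 genes, and fold changes understate changes of low genes. The difference between treatments carried no fold limit. The fit was tested on simulated data. The gene lists and members were chosen with earlier results of these data known. Values in each library are given for called members, the 3 most abundant of each class, the transcription factors and members under the level for testing, and up to 3 called genes per wider list. SE stands for standard error. Alternatives covered scaling, pseudocount, filter, weights, fold limit, libraries and a replicate block. Promoter sequences are from RefSeq (GRCh38.p14).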

Additional observations from a re-analysis of the deposited data

Results flagged for a closer look

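The results below were singled out because the effect of DHE over vehicle and the effect of NR4A1 over GFP differed in a direct test of the difference (limma, adjusted p under 0.05). On the log2 scale the DHE effect exceeded the NR4A1 effect by 1.58 for TPP1, 1.42 for TFE3, 1.42 for CTSK, 1.33 for MCOLN1, 1.06 for CTSB, 1.04 for IDS, 0.76 for CTSH and 0.51 for NEU1. The DHE effect minus the NR4A1 effect was -1.43 for CTSL, which rose with both treatments, -0.68 for NAGLU, -0.56 for GM2A and -0.48 for PPT1. PPT1 had the smallest of these differences and lost its call under 12 of 18 alternatives. Larger differences were lost too, that of CTSH under 12 of 17, IDS under 10 of 18, and TPP1, NEU1 and CTSL under 8 of 18 each. The calls of TFE3 and CTSB held under all 18. TPP1, CTSH, GM2A and PPT1 were called in neither treatment by itself. CTSK reached the level for testing only through its DHE libraries. With 2 libraries a group, no gene was screened for a library far from the rest of its group.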

How the results depend on the processing

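The 10 genes called higher and the 1 called lower with DHE stayed within 1.5 times those counts under every alternative run, and no direction reversed. CTSL with NR4A1 and CTSB, CTSL, GLA, MCOLN1, NAGLU and TFE3 with DHE were called under all 20 alternatives each. With DHE, ACP2 was lost without the second vehicle library (adjusted p 0.0677), NEU1 without the first DHE library (0.56, under the fold limit), and CTSK was not testable without either DHE library or at a minimum of 5 TPM, as was SMPD1 at that minimum, while IDS was lost under 12 of 20 alternatives. With NR4A1 the count called higher was 4 with no fold limit, and 1 to 2 when single libraries were left out, with CD68 added without the second GFP library. The count called lower was 1 in place of 0 with equal totals outside ribosomal RNA (ARSB), with no fold limit (ARSB) and without the first GFP and second DHE library together (TPP1), and 0 to 1 when single libraries were left out (MCOLN1 without the second GFP library, TPP1 without either DHE library). The difference between treatments depended most on the processing. Its 8 calls above 0 became 4 without rescaling, 4 without the filter and 4 with the replicate block, and 2 to 10 when single libraries were left out, with 2 without the first vehicle and 10 without the second GFP library. Its 4 calls below 0 became 0 without rescaling, 2 with equal totals outside ribosomal RNA, 2 without the filter and 2 with the replicate block, and 0 to 8 when single libraries were left out, with 8 without the second GFP library. With the replicate block, 10 of the 11 DHE calls were kept (IDS was lost), as were CTSL with NR4A1 and 6 of the 12 differences. Same-numbered libraries share only a number, since nothing in the labels pairs them and their deviations correlated at -0.0103 for NR4A1 with GFP and 0.0249 for DHE with vehicle.

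Equal totals outside ribosomal RNA moved the median of all genes to -0.11 with NR4A1 and 0.10 with DHE, and the medians of the 42 genes to 0.05 and 0.29. Under it, all genes called with NR4A1 split into 295 higher and 419 lower (380 and 325 in the report), with DHE into 1542 and 1220 (1303 and 1457), and for the difference into 1508 and 1064 (1153 and 1563). Upper quartile scaling gave 1618 and 1259 with DHE. Without the second GFP library 642 genes were called higher and 856 lower with NR4A1. Unknown depth leaves the error of genes near 1 TPM, such as CTSK and SMPD1, unstated, and 2 libraries a group leave 4 residual degrees of freedom.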
